A study of Drosophila melanogaster with 9 samples.

Results

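The 37 genes described here encode the core actin and myosin cytoskeleton of Drosophila melanogaster cells: cytoplasmic actins, non-muscle and unconventional myosins, proteins that handle actin monomers, the Arp2/3 complex, elongation factors, capping and crosslinking proteins, spectrins, and signalling proteins that control them. They were chosen by gene name from a list set by function, with earlier results of these data known. All 37 were found among the 17558 genes of the deposited tables. All 37 were also among the 11068 genes that passed the filter on low counts and were tested. RNA was sequenced from retinas of pupae raised at 25 °C and aged 40 to 41 hours from puparium formation, a stage at which, per the series design, trichomes begin to appear in eyes that overexpress Bonus (Bon), a transcriptional cofactor. The comparisons ask how the eye responds to Bon and which part of that response changes when Yorkie (Yki), the coactivator restrained by the Hippo pathway, is knocked down.

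Every group carried the pGMR-GAL4 driver, which acts in the differentiating eye, and cells were not sorted by its activity. Bon+yki-RNAi eyes carried UAS-bon-mCherry over a wild-type chromosome, and the driver over the RNAi transgene UAS-yki-RNAi (BDSC #34067). Bon eyes carried UAS-bon-mCherry and the driver, each over a wild-type chromosome, and so lacked the additional UAS transgene. The mCherry control eyes had UAS-mCherry (BDSC #35787) over the driver. Each group had 3 libraries, each made from 60 pooled eyes. The series design calls them biological replicates, but whether the pools came from separate crosses is not given in the sources used here, so p-values measure the spread between these libraries.

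Actin filaments grow from monomers that profilin delivers and cofilin and its partners recycle. Branched networks come from the Arp2/3 complex, straight filaments from formins and Ena, and contractile force from myosin II, whose heavy chain is zipper (zip) and whose regulatory light chain is spaghetti squash (sqh). In the fly eye this machinery shapes the apical junctions of the pupal lattice and the actin-packed rhabdomeres of photoreceptors, and in the epidermis it builds the actin core of trichomes and bristles.

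Library totals ranged from 37137136 to 39690537 counts in Bon+yki-RNAi, from 38754394 to 48485542 in Bon and from 34926438 to 48524961 in mCherry. The targeted genes followed the labels: bon averaged 4166, 4983 and 174 CPM (counts scaled to library size) in Bon+yki-RNAi, Bon and mCherry, and yki 29.2, 62.6 and 61.1 CPM. However, bon itself fell by 16.4% in Bon+yki-RNAi against Bon (log2 fold change -0.26, SE 0.03, adjusted p = 6.14e-05), with no overlap between libraries. The part of this lower bon level in the results of that comparison was not tested. The neuronal marker elav was present in every group, at 448, 397 and 376 CPM in Bon+yki-RNAi, Bon and mCherry. The 8 markers of cone and pigment cells summed to between 1189 and 1222 CPM in Bon+yki-RNAi, between 1025 and 1054 CPM in Bon and between 1699 and 1791 CPM in mCherry, none of them at 0. Of these 8, 7 fell and none rose in Bon against mCherry, while 4 rose and 2 fell in Bon+yki-RNAi against Bon. In bulk RNA of this kind, fewer cells of a type and less RNA per cell cannot be told apart, and the part of cell composition in the results below was not tested.

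All 37 genes were well measured, with 1204 to 195411 counts per library and a coefficient of variation within groups of 0.233 to 4.77% (median 1.75%). To compare genes, levels were divided by exon length, as CPM per kb. In mCherry eyes Act5C led with 1359.6 CPM per kb, rank 20 of the 11068 tested genes. It was followed by the cofilin gene tsr at 563 and Act42A at 456 CPM per kb. The lowest was the formin gene dia at 15.9 CPM per kb. The median of the 37 was 77.0 CPM per kb, against 10.8 over all tested genes, and 23 of the 37 stood among the top 10% of tested genes by this measure. Together they took between 2.215 and 2.233% of all counts in Bon+yki-RNAi, between 2.297 and 2.317% in Bon and between 2.286 and 2.315% in mCherry.

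**Figure D1:**
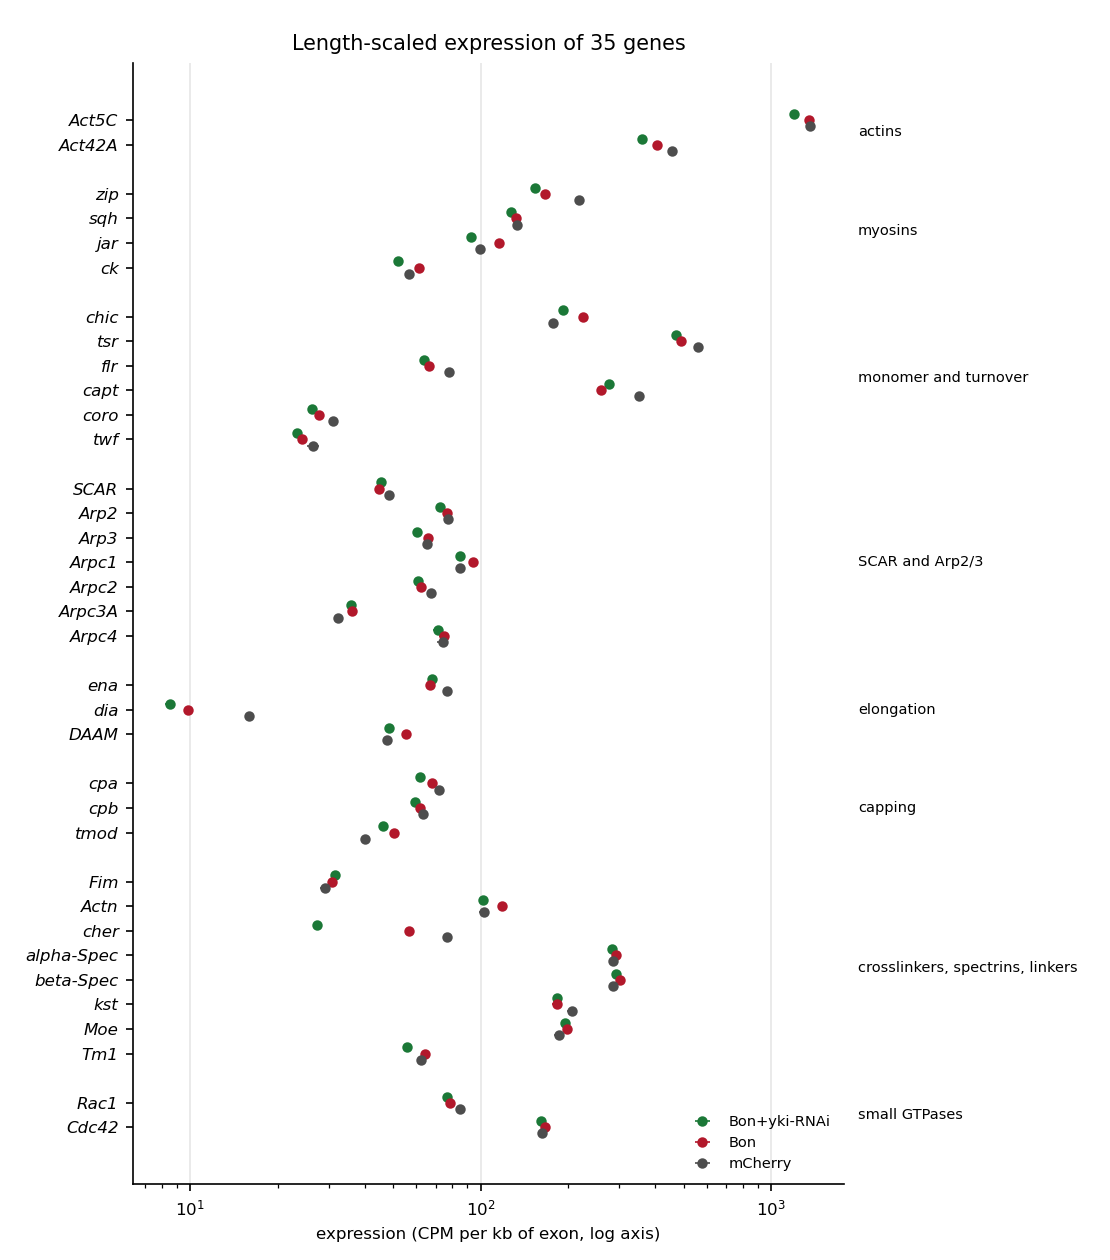
Expression of 35 of the 37 genes in CPM per kb of exon on a log axis, with genes grouped by role down the page and one point per group mean (bars, SD of 3 libraries). Act5C lies furthest right in all groups and dia furthest left, and cher shows the widest gap between the points of the 3 groups.

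In Bon against mCherry, 26 of the 37 genes passed the threshold of an adjusted p of 0.05, which is 70.3% beside 52.4% of all tested genes. Of these, 11 rose (all genes, 25.2%) and 15 fell (all genes, 27.2%). With upper-quartile scaling in place of TMM the split was 14 rising and 10 falling, and that of all tested genes moved the same way, to 3894 rising and 2323 falling, against 2786 and 3009 with TMM. Most of the changes were small: the median absolute log2 fold change of the 37 was 0.12, against 0.18 over all tested genes, and 6 genes passed with a log2 fold change of 0.3 or more in size (16.2%, beside 28.1% of all tested genes). These were dia, capt, cher and zip, which fell, and chic and tmod, which rose. In Bon+yki-RNAi against Bon, 18 genes passed (48.6%, beside 27.6% of all tested genes), of which 17 fell (all genes, 16.3%) and only capt rose (all genes, 11.3%). With upper-quartile scaling 15 fell and 1 rose, while all tested genes split into 1468 falling and 1610 rising, against 1803 and 1251 with TMM. Here 2 of the 37 genes, cher and jar, passed at that size (5.41%, beside 12% of all tested genes). The median absolute log2 fold change of the 37 was 0.08, against 0.10 over all tested genes. The part of the genes' high levels in their share of calls was not tested, and both comparisons use the same Bon libraries, so their values are given side by side only.

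**Figure D2:**
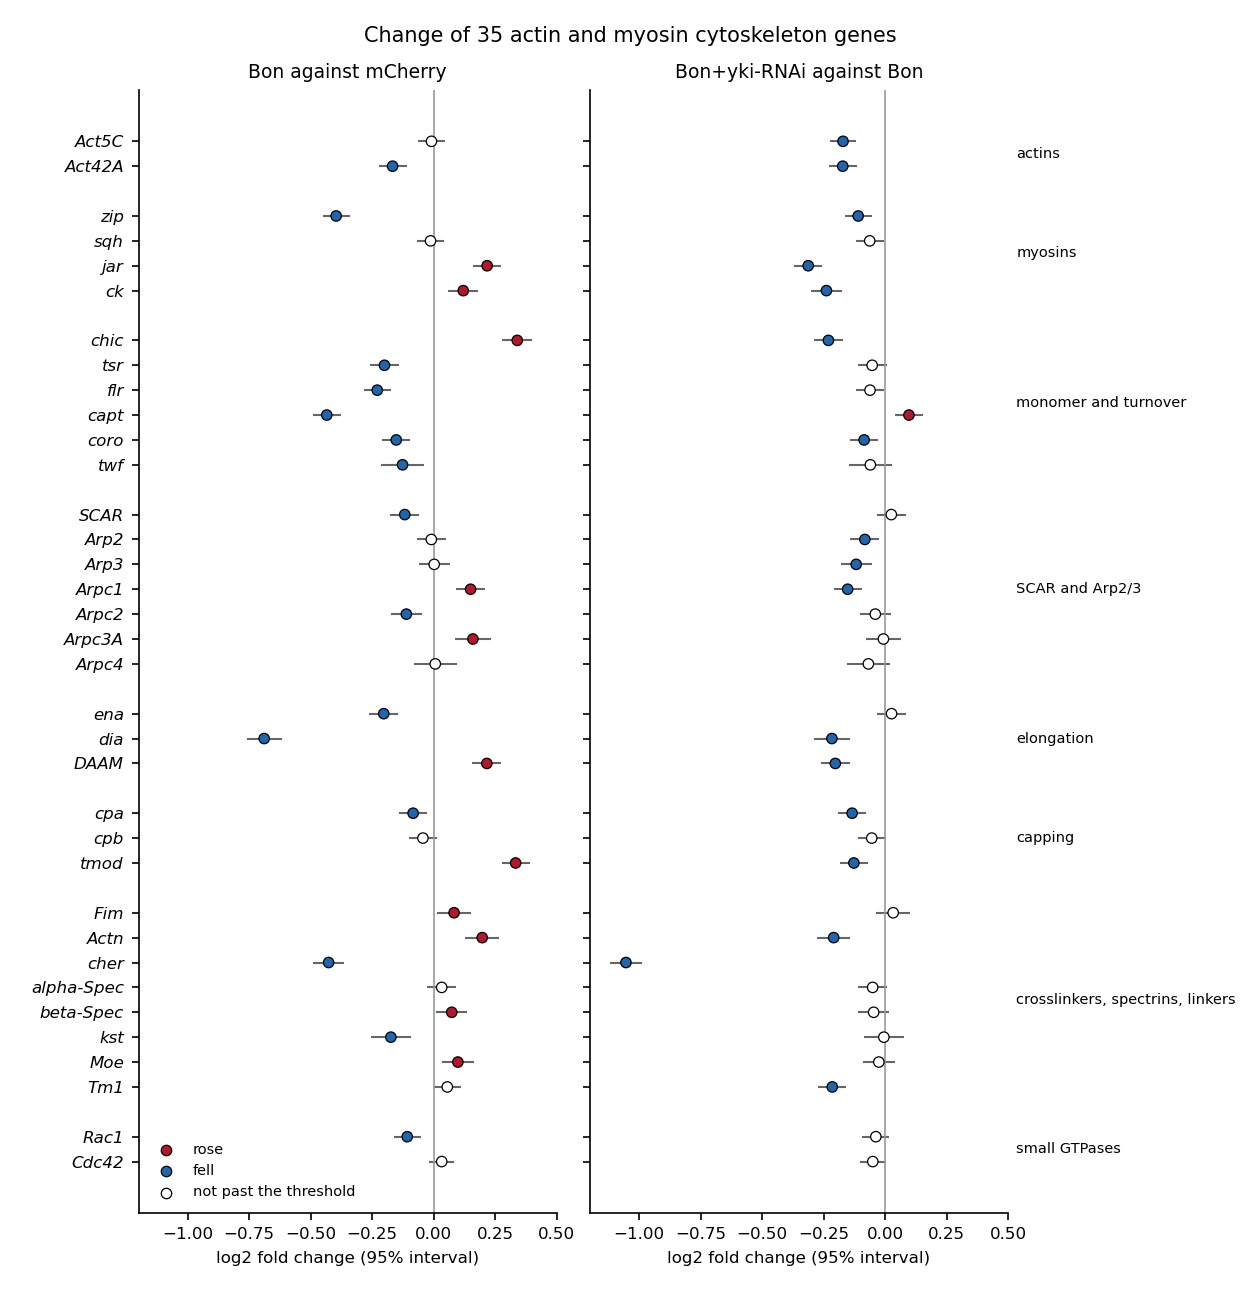
Log2 fold change of 35 of the 37 genes in Bon against mCherry (left) and in Bon+yki-RNAi against Bon (right), with 95% intervals from edgeR; filled points passed the threshold (red rose, blue fell). On the left the points lie on both sides of 0, from -0.69 for dia to 0.34 for chic, and on the right nearly all filled points lie below 0, with cher at -1.05.

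Of the 2 cytoplasmic actin genes, Act42A fell with Bon and both fell when yki was knocked down as well. The genes are near-identical in coding sequence, and how reads shared between them were counted is not given in the sources used here, so the division between them is uncertain. Act5C (FBgn0000042; BDGP6 chromosome X, 5900861 to 5905399, plus strand), the main cytoplasmic actin, had 3557, 3569 and 3596 CPM in Bon+yki-RNAi eyes, 4043, 4024 and 4004 CPM in Bon eyes, and 3989, 4071 and 4086 CPM in mCherry eyes. Bon and mCherry libraries overlapped, whereas all Bon+yki-RNAi libraries lay below every other library. Its log2 fold change was -0.01 in Bon against mCherry (95% interval -0.06 to 0.04, adjusted p = 0.79). It fell by 11.2% in Bon+yki-RNAi against Bon (-0.17 ± 0.02, SE; adjusted p = 0.000127). Act42A (FBgn0000043; chromosome 2R, 6013910 to 6015689, minus strand) had 596, 581 and 583 CPM in Bon+yki-RNAi, 661, 665 and 657 CPM in Bon, and 738, 765 and 724 CPM in mCherry. The 3 groups did not overlap. Act42A fell by 10.9% in Bon against mCherry (-0.17 ± 0.03, adjusted p = 9.7e-05) and by 11.2% in Bon+yki-RNAi against Bon (-0.17 ± 0.03, adjusted p = 0.000226).

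The chains of myosin II did not move together. The heavy chain gene zip (FBgn0265434; chromosome 2R, 24990570 to 25011965, minus strand) had 1108, 1099 and 1140.3 CPM in Bon+yki-RNAi, 1213, 1197 and 1201 CPM in Bon, and 1607, 1576 and 1571 CPM in mCherry. Every Bon library lay below every mCherry library, and every Bon+yki-RNAi library lay lower still. It fell by 24.0% in Bon against mCherry (-0.40 ± 0.03, adjusted p = 6.64e-09) and it fell by 7.30% in Bon+yki-RNAi against Bon (-0.11 ± 0.03, adjusted p = 0.00495). The regulatory light chain gene sqh (FBgn0003514; chromosome X, 6223061 to 6225140, minus strand) had 198, 203 and 200.1 CPM in Bon+yki-RNAi, 207, 214 and 206 CPM in Bon, and 209.7, 216 and 207 CPM in mCherry. Bon and mCherry overlapped in part, and with TMM scaling Bon+yki-RNAi lay just below Bon. Its log2 fold change was -0.01 in Bon against mCherry (95% interval -0.07 to 0.04, adjusted p = 0.718) and -0.06 in Bon+yki-RNAi against Bon (-0.12 to -0.01, adjusted p = 0.0944).

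The unconventional myosin genes of the set went up with Bon and down when yki was knocked down beside it. Myosin VI, which walks toward the minus end of filaments, is encoded by jar (FBgn0011225; chromosome 3R, 24252826 to 24271233, minus strand). It had 527, 515 and 532 CPM in Bon+yki-RNAi, 654, 658 and 644 CPM in Bon, and 575, 552 and 555 CPM in mCherry. With TMM scaling the Bon libraries were the highest and the Bon+yki-RNAi libraries the lowest, without overlap. It rose by 16.3% in Bon against mCherry (0.22 ± 0.03, adjusted p = 6.28e-06) and fell by 19.5% in Bon+yki-RNAi against Bon (-0.31 ± 0.03, adjusted p = 6.79e-07). The myosin VIIA gene ck, needed for well-formed bristles and hairs, averaged 386 ± 3.98, 455 ± 12.5 and 419 ± 12.1 CPM in Bon+yki-RNAi, Bon and mCherry (SD, n = 3 each). It rose with Bon (0.12 ± 0.03, adjusted p = 0.00283) and fell in Bon+yki-RNAi against Bon (-0.24 ± 0.03, adjusted p = 2.57e-05).

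Of the 6 genes for monomer handling and filament turnover, 5 fell and chic rose in Bon against mCherry. Profilin, which loads monomers onto growing ends, is encoded by chic (FBgn0000308; chromosome 2L, 5972115 to 5981018, minus strand). It had 502, 508 and 504 CPM in Bon+yki-RNAi, 574, 605 and 596 CPM in Bon, and 454, 475 and 474 CPM in mCherry. Bon was highest and mCherry lowest, with no overlap. It rose by 26.6% in Bon against mCherry (0.34 ± 0.03, adjusted p = 1.17e-07) and fell by 14.8% in Bon+yki-RNAi against Bon (-0.23 ± 0.03, adjusted p = 2.72e-05).

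The cyclase-associated protein, which recycles cofilin-bound monomers, is encoded by capt (FBgn0261458; chromosome 2L, 1151678 to 1158262, minus strand). It had 904, 882 and 903 CPM in Bon+yki-RNAi, 838, 852 and 824 CPM in Bon, and 1123, 1157 and 1119 CPM in mCherry. Bon was lowest in every library and mCherry highest, the reverse of chic. It fell by 26.0% in Bon against mCherry (-0.43 ± 0.03, adjusted p = 3.29e-09). With yki knocked down beside Bon it rose by 6.96% (0.10 ± 0.03, adjusted p = 0.0125), a call that was lost without Bon+yki-RNAi replicate 1 (0.09, adjusted p = 0.0643). Its exons overlap those of Vps29 on the other strand.

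The remaining turnover genes were lower with Bon by smaller amounts. Cofilin (tsr) averaged 347 ± 7.76, 360.2 ± 1.29 and 414 ± 11.5 CPM in Bon+yki-RNAi, Bon and mCherry, and its partner AIP1 (flr) 149 ± 1.83, 156 ± 2.58 and 183 ± 3.55 CPM. With Bon, tsr fell by 0.20 and flr by 0.23 on the log2 scale (adjusted p = 2.3e-05 and 3.02e-06). The coronin gene coro fell by 0.15 (adjusted p = 0.000222). The twinfilin gene twf fell by 0.13 (adjusted p = 0.0158), but its call was lost with upper-quartile scaling (-0.06, adjusted p = 0.231), with DESeq2 (adjusted p = 0.053), and without mCherry replicate 2, Bon replicate 1 or Bon replicate 2 (-0.08, -0.11 and -0.11; adjusted p = 0.118, 0.0701 and 0.066). In Bon+yki-RNAi against Bon, tsr, flr and twf did not pass (-0.05, -0.06 and -0.06; adjusted p = 0.18, 0.096 and 0.307). The fall of coro there (-0.09, adjusted p = 0.0291) was lost in 5 of the 6 fits without 1 library, all but the one without Bon replicate 1, with adjusted p between 0.0512 and 0.123, and also with upper-quartile scaling and DESeq2 (-0.06 and -0.08; adjusted p = 0.0949 and 0.11). The exons of tsr overlap those of IntS1, and those of twf overlap 140up, each on the other strand.

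The Arp2/3 genes and their activator SCAR showed no common direction in Bon against mCherry: 2 of 7 rose, 2 fell and 3 did not pass. The subunit gene Arpc1 averaged 147 ± 1.87, 164 ± 1.94 and 147 ± 4.04 CPM in Bon+yki-RNAi, Bon and mCherry, and rose by 11.0% with Bon (0.15 ± 0.03, adjusted p = 0.000264). Arpc3A rose to a like extent (0.16 ± 0.03, adjusted p = 0.0011). SCAR fell by 0.12 and Arpc2 by 0.11 on the log2 scale (adjusted p = 0.00215 and 0.00571), and neither passed with upper-quartile scaling (-0.05 and -0.04; adjusted p = 0.121 and 0.237). Those encoding the actin-related subunits, Arp2 and Arp3, stood at -0.01 (95% interval -0.07 to 0.05) and 0.00 (-0.06 to 0.07), and Arpc4 at 0.01 (-0.08 to 0.09).

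When yki was knocked down in Bon eyes, 3 of these 7 genes fell and none rose. Arpc1 fell by 0.15 on the log2 scale (SE 0.03, adjusted p = 0.000648). Arp3 fell by 0.12 (adjusted p = 0.00806; -0.10 and 0.0508 without Bon+yki-RNAi replicate 2). Arp2 fell by 0.08 (adjusted p = 0.0375), a call lost in each of the 6 fits without 1 library of either group, with adjusted p between 0.0613 and 0.151, and also with upper-quartile scaling and DESeq2 (-0.06 and -0.07; adjusted p = 0.124 and 0.0809). SCAR, Arpc2, Arpc3A and Arpc4 did not pass (0.03, -0.04, -0.01 and -0.07; adjusted p between 0.251 and 0.912). SCAR shares exon sequence with piwi and Arpc4 with WDR79, each on the other strand.

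The formins dia and DAAM, both nucleators and elongators of straight filaments, moved in opposite directions with Bon. The dia gene (FBgn0011202; chromosome 2L, 20758144 to 20768053, plus strand) had 55.6, 56.5 and 59.1 CPM in Bon+yki-RNAi, 64.4, 68.2 and 66.1 CPM in Bon, and 109.7, 107 and 104 CPM in mCherry. The groups did not overlap, and the gap between Bon and mCherry was the wider one. It fell by 38.0% in Bon against mCherry (-0.69 ± 0.03, adjusted p = 2.72e-10), the largest change of the 37 genes in that comparison, and by 13.9% in Bon+yki-RNAi against Bon (-0.22 ± 0.03, adjusted p = 0.000274). DAAM averaged 300.3 ± 4.07, 346 ± 8.5 and 297 ± 7.14 CPM in Bon+yki-RNAi, Bon and mCherry. It rose by 16.2% with Bon (0.22 ± 0.03, adjusted p = 1.15e-05) and fell in Bon+yki-RNAi against Bon (-0.20 ± 0.03, adjusted p = 7.41e-05). The anti-capping protein gene ena fell by 13.1% with Bon (-0.20 ± 0.03, adjusted p = 1.9e-05), and in Bon+yki-RNAi against Bon it had 0.03 (-0.03 to 0.09, adjusted p = 0.528).

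Among the capping genes, tropomodulin, which caps the pointed end of filaments, rose with Bon. Its gene tmod (FBgn0082582; chromosome 3R, 30532607 to 30578905, plus strand) had 383, 385 and 385 CPM in Bon+yki-RNAi, 417, 417 and 425 CPM in Bon, and 329, 326 and 344 CPM in mCherry. All Bon libraries were highest and all mCherry libraries lowest. It rose by 26.0% in Bon against mCherry (0.33 ± 0.03, adjusted p = 6.83e-08) and fell by 8.42% in Bon+yki-RNAi against Bon (-0.13 ± 0.03, adjusted p = 0.00224). The genes of the barbed-end capping dimer, cpa and cpb, averaged 119 ± 2.07 and 114 ± 1.74 CPM in Bon+yki-RNAi, 130.1 ± 1.9 and 119 ± 1.45 CPM in Bon, and 138 ± 2.19 and 122 ± 3 CPM in mCherry. With Bon, cpa fell by 0.08 (adjusted p = 0.0145), but not with upper-quartile scaling (-0.02, adjusted p = 0.616) nor without mCherry replicate 2 or Bon replicate 1 (-0.06 each; adjusted p = 0.0639 and 0.106). In Bon+yki-RNAi against Bon, cpa fell by 0.13 (adjusted p = 0.00143). For cpb the log2 fold changes were -0.04 (-0.10 to 0.01) and -0.05 (-0.11 to 0.00), neither past the threshold. The exons of cpa overlap those of CG15653 on the other strand.

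**Figure D3:**
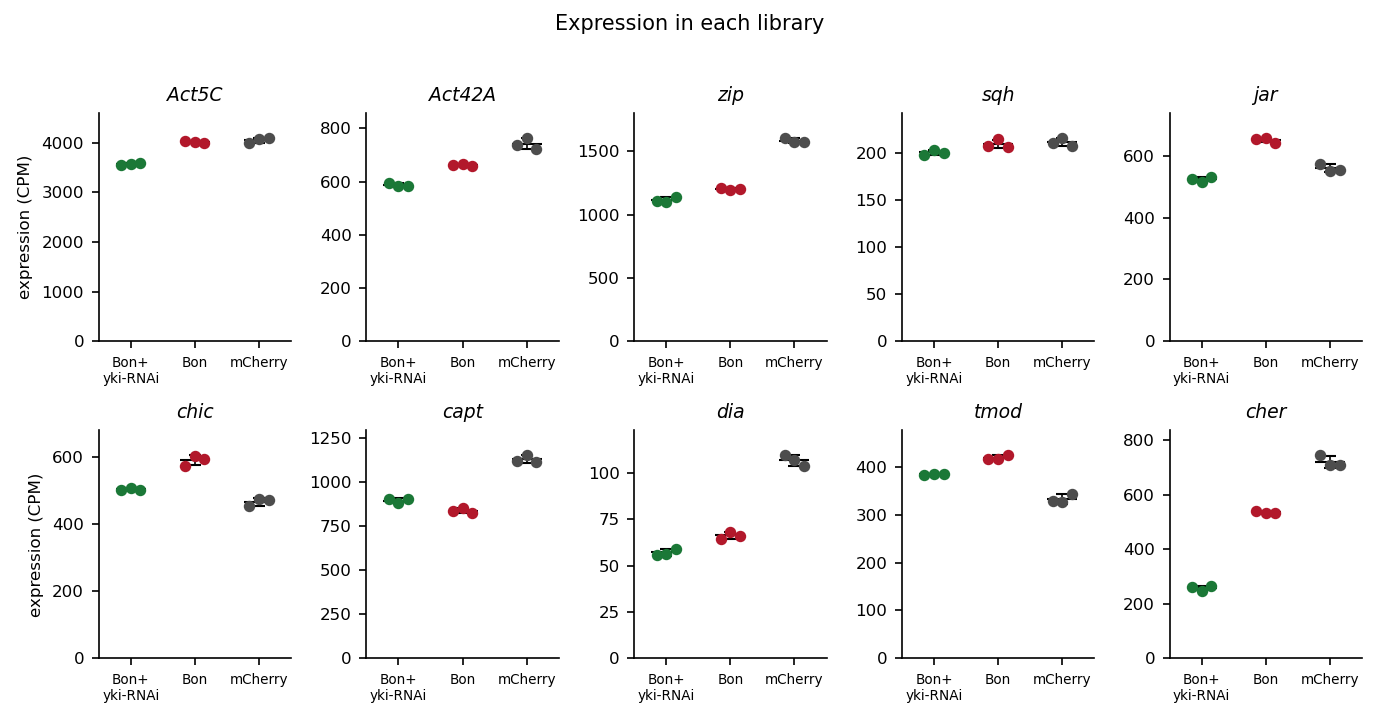
Expression in CPM in each of the 9 libraries (points) with the mean and SD of each group (lines and bars), for the actins, myosin II chains and the genes whose log2 fold change was 0.3 or more in size; every vertical axis starts at 0. Bon libraries are highest for jar, chic and tmod and lowest for capt, and cher steps down across the 3 groups from right to left.

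The filamin gene cher had the largest change of the 37 genes when yki was knocked down. Filamin crosslinks filaments into loose networks and ties them to the membrane. The gene (FBgn0014141; chromosome 3R, 17091533 to 17125389, minus strand) had 262, 248 and 264 CPM in Bon+yki-RNAi, 539.9, 534 and 533 CPM in Bon, and 746, 708 and 707 CPM in mCherry. No group overlapped another: Bon+yki-RNAi was lowest, then Bon, then mCherry. It fell by 51.8% in Bon+yki-RNAi against Bon (-1.05 ± 0.03, 95% interval -1.12 to -0.99, adjusted p = 1.13e-11). It also fell by 25.6% in Bon against mCherry (-0.43 ± 0.03, adjusted p = 1.85e-08), and it fell by 64.2% in Bon+yki-RNAi against mCherry (-1.48 ± 0.03, adjusted p = 3.91e-14). Across 11 alternative settings the log2 fold change stayed between -1.07 and -1.02 in Bon+yki-RNAi against Bon and between -0.44 and -0.36 in Bon against mCherry.

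The exons of cher overlap those of cal1, a centromere gene on the other strand, which averaged 34.5, 40.0 and 44.7 CPM in Bon+yki-RNAi, Bon and mCherry, far below cher. Of the 6 tested neighbours, up to 24.3 kb from cher and picked after the values were seen, cal1 was the only one that fell in Bon+yki-RNAi against Bon, by 0.21 on the log2 scale (adjusted p = 0.000255). Of the others, kuk and Det rose (0.18 and 0.91, adjusted p = 0.000112 and 0.00364). Det stood at only 1.26, 0.673 and 0.397 CPM in Bon+yki-RNAi, Bon and mCherry. The log2 fold changes of m-cup, GckIII and TwdlW were 0.02, -0.01 and -0.81, none past the threshold. TwdlW stood at 0.204, 0.367 and 0.118 CPM in the same groups, with an adjusted p of 0.234. Jitterbug (jbug), a related actin-binding protein with filamin repeats that is no member of the set and was likewise picked afterwards, averaged 440.0, 613 and 429 CPM in Bon+yki-RNAi, Bon and mCherry. It rose with Bon (0.52 ± 0.06, adjusted p = 9.01e-05) and fell in Bon+yki-RNAi against Bon (-0.48 ± 0.06, adjusted p = 0.000435).

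Markers of photoreceptors moved beside cher in part. The 8 photoreceptor markers summed to 2867 to 2935, 2919.5 to 2966 and 3236 to 3302 CPM in Bon+yki-RNAi, Bon and mCherry, none of them at 0. The largest part of this sum was Fas2, at 1465, 1433 and 1194 CPM in the same groups. In Bon against mCherry 4 rose and 3 fell, and in Bon+yki-RNAi against Bon 2 rose and 2 fell. The marker chp, which encodes a rhabdomere adhesion protein, averaged 117, 293 and 429 CPM in Bon+yki-RNAi, Bon and mCherry, an order like that of cher. The order of trp was the same, at 19.3, 31.9 and 49.4 CPM, whereas elav, Fas2 and sens had the opposite order. The part of photoreceptors in the result for cher was not tested.

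Of the other crosslinkers and membrane linkers, Actn was the one that rose with Bon by more than 10%. The alpha-actinin gene Actn averaged 539 ± 5.77, 623 ± 18.4 and 543 ± 21.3 CPM in Bon+yki-RNAi, Bon and mCherry. It rose with Bon by 14.7% (0.20 ± 0.03, adjusted p = 0.000109) and fell by 13.5% in Bon+yki-RNAi against Bon (-0.21 ± 0.03, adjusted p = 0.0002). Its exons overlap usp on the same strand and CG4313 and east on the other. The fimbrin gene Fim (0.08, adjusted p = 0.043), beta-Spec (0.07, adjusted p = 0.0496) and the moesin gene Moe, which links actin to the membrane (0.10, adjusted p = 0.0135), rose narrowly with Bon, and each lost its call when 1 library was left out. For Fim these were mCherry replicates 1 and 2 and Bon replicate 2 (0.09, 0.07 and 0.07; adjusted p = 0.0701, 0.105 and 0.106), and the call was also lost with DESeq2 and in a fit of only the groups compared (0.08 each; adjusted p = 0.0665 and 0.0632). For beta-Spec they were mCherry replicate 2 and Bon replicates 1 and 2 (0.06, 0.07 and 0.08; adjusted p = 0.0781, 0.102 and 0.0569), and for Moe mCherry replicate 3 (0.06, adjusted p = 0.0697). Both also lost it in the fit of only the groups compared (0.07 for beta-Spec and 0.09 for Moe; adjusted p = 0.104 and 0.0517).

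The spectrins, tetramers that form the membrane skeleton, differed by chain. The apical heavy chain gene kst averaged 2643 ± 81.3, 2652 ± 107 and 2992 ± 122 CPM in Bon+yki-RNAi, Bon and mCherry and fell by 11.4% with Bon (-0.17 ± 0.04, adjusted p = 0.00136). The common chain gene alpha-Spec had a log2 fold change of 0.03 in Bon against mCherry (-0.03 to 0.09, adjusted p = 0.336), which passed with upper-quartile scaling (0.10, adjusted p = 0.00478). In Bon+yki-RNAi against Bon the 3 spectrin genes had -0.00 (kst), -0.05 (alpha-Spec) and -0.05 (beta-Spec), none past the threshold. Tropomyosin, which coats filaments, is encoded by Tm1, with 527 ± 1.41, 612 ± 16.8 and 589 ± 7.35 CPM in Bon+yki-RNAi, Bon and mCherry. It fell by 13.8% in Bon+yki-RNAi against Bon (-0.21 ± 0.03, adjusted p = 2.69e-05). In Bon against mCherry it had 0.06 (-0.00 to 0.11, adjusted p = 0.0903), and it passed with upper-quartile scaling (0.12, adjusted p = 0.00079) and without mCherry replicate 2, Bon replicate 1 or Bon replicate 3 (0.07, 0.08 and 0.08; adjusted p = 0.0292, 0.04995 and 0.0434). Part of the alpha-Spec exons overlap dlt on the same strand and CR45834 on the other. The exons of beta-Spec overlap those of CG12990 on the other strand.

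Rac1 and Cdc42 encode small GTPases that switch on actin assembly. Rac1 averaged 138 ± 1.57, 142 ± 0.842 and 153 ± 3.73 CPM in Bon+yki-RNAi, Bon and mCherry. It fell by 7.18% with Bon (-0.11 ± 0.03, adjusted p = 0.00276), a call that was lost with upper-quartile scaling (-0.04, adjusted p = 0.195). Cdc42 averaged 335 ± 6.41, 346 ± 2.35 and 339 ± 2.6 CPM in the same groups. Its log2 fold change with Bon was 0.03 (-0.02 to 0.09, adjusted p = 0.277), and it passed with upper-quartile scaling (0.10, adjusted p = 0.00191). Neither passed in Bon+yki-RNAi against Bon, where Rac1 had -0.04 and Cdc42 -0.05 (adjusted p = 0.317 and 0.147). The exons of Cdc42 overlap those of CG14231 on the other strand.

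Bon+yki-RNAi eyes were also set against mCherry. There 29 of the 37 genes passed (78.4%, beside 54.5% of all tested genes), 4 of them higher (all genes, 25.1%) and 25 lower (all genes, 29.4%), and 5 passed at a size of 0.3 or more (all tested genes, 29.7%). The 4 that rose were chic, tmod, Fim and Arpc3A. This split depended on the scaling: 11 genes rose and 12 fell under upper-quartile factors, with 4252 rising and 2412 falling among all tested genes, against 2773 and 3259 with TMM. The 12 that fell with that scaling were Act5C, Act42A, zip, tsr, flr, capt, coro, ena, dia, cpa, cher and Tm1. Those 5, with TMM, were cher (-1.48), dia (-0.91), zip (-0.51), Act42A (-0.34) and capt (-0.34), all of them lower. By contrast DAAM, Arpc1 and Actn had 0.01 (-0.05 to 0.07), -0.00 (-0.06 to 0.06) and -0.01 (-0.08 to 0.06), values near 0 that passed as rises with upper-quartile scaling (0.11, 0.09 and 0.08).

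Ratios between partner genes within a library do not depend on the scaling of libraries. The pairs were picked after the values were seen and are given with no test, as ratios of CPM per kb (mean ± SD, n = 3 each). The ratio of zip to sqh was 1.21 ± 0.0315 in Bon+yki-RNAi, 1.25 ± 0.0305 in Bon and 1.64 ± 0.041 in mCherry, lower in every library of both Bon-carrying groups than in any mCherry library. The ratio of DAAM to dia was 5.68 in Bon+yki-RNAi, 5.63 in Bon and 3.00 in mCherry, with both Bon-carrying groups above the control. For chic over capt the ratio was 0.692, 0.868 and 0.507 in Bon+yki-RNAi, Bon and mCherry. That of cher to Actn was 0.268, 0.481 and 0.742 in the same groups. The 2 spectrin chains of the lateral membrane kept close to parity, with alpha-Spec over beta-Spec at 0.968, 0.971 and 0.999.

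**Figure D4:**
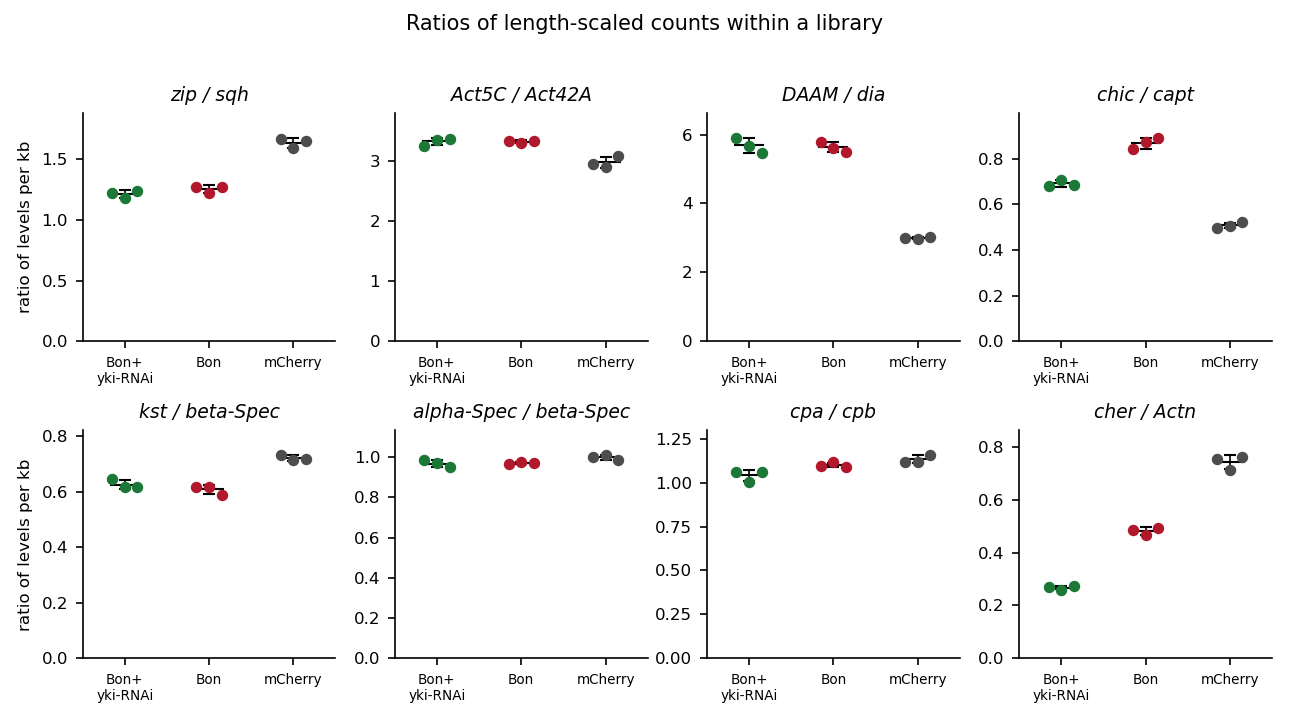
Ratios of CPM per kb between pairs of genes in each of the 9 libraries (points), with the mean and SD of each group, on axes that start at 0. Every ratio but that of alpha-Spec to beta-Spec separates the libraries of the Bon-carrying groups from those of mCherry. For cpa to cpb the gap is narrow, from 1.116 in Bon to 1.118 in mCherry. The alpha-Spec to beta-Spec ratio lies close to 1 in all 9 libraries.

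A further 86 actin and myosin genes outside the set were examined in the same fit, and 84 were tested. Their list was set by function, but with earlier results of these data known. With Bon against mCherry 31 rose (36.9%, beside 25.2% of all tested genes) and 23 fell (27.4%, beside 27.2%). In Bon+yki-RNAi against Bon 10 rose (11.9%, beside 11.3%) and 21 fell (25.0%, beside 16.3%). The genes of the list with the largest changes build actin bundles and hairs or belong to photoreceptors. The trichome gene sha averaged 252, 611 and 95.4 CPM in Bon+yki-RNAi, Bon and mCherry. Its larger change was a rise in Bon against mCherry, and it fell by 1.27 on the log2 scale in Bon+yki-RNAi against Bon (SE 0.05, adjusted p = 8.99e-10). The forked gene f, which bundles bristle actin, averaged 193, 371 and 184 CPM, and had 1.01 ± 0.03 in Bon against mCherry and -0.94 ± 0.03 in Bon+yki-RNAi against Bon (adjusted p = 2.35e-12 and 5.2e-11). The villin-like gene qua averaged 134, 128 and 389 CPM and fell with Bon (-1.61 ± 0.03, adjusted p = 2.19e-14), with 0.07 in Bon+yki-RNAi against Bon (adjusted p = 0.167). The photoreceptor myosin III gene ninaC averaged 399.7, 319 and 781 CPM. Its larger change was a fall in Bon against mCherry, and it rose in Bon+yki-RNAi against Bon (0.32 ± 0.03, adjusted p = 7.22e-07). Of the list's muscle actins none passed with Bon, and Act87E, at 5.93, 10.8 and 11.2 CPM, fell in Bon+yki-RNAi against Bon (-0.87, adjusted p = 3.56e-06).

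Muscle in the dissected tissue was examined as a source of actin and myosin RNA. The 15 muscle markers summed to between 636 and 677 CPM in Bon+yki-RNAi, between 534 and 610.0 CPM in Bon and between 986 and 1117 CPM in mCherry, none of them at 0. The titin-like gene sls made up most of this, with 613, 535 and 1031 CPM, and each of the others stood at no more than 15.9 CPM in any group, Mhc among them at 2.45, 1.57 and 1.45 CPM. In Bon against mCherry 1 marker rose and 1 fell. The 5 glial markers summed to 809 to 817, 777 to 815 and 1123 to 1144 CPM in Bon+yki-RNAi, Bon and mCherry, and the 7 hemocyte markers to 714 to 726, 807 to 843 and 814 to 859 CPM, with He at 0 in Bon and mCherry. Most of the hemocyte sum came from Ppn, at 579, 702 and 672 CPM in Bon+yki-RNAi, Bon and mCherry, and Pxn, at 140, 124 and 162 CPM. Each of the other hemocyte markers stood at no more than 4.24 CPM in any group. Of the hemocyte markers, 4 fell and none rose in Bon+yki-RNAi against Bon, with Ppn at -0.28 and Hml and srp at -0.64 each. The fourth was eater at -1.66, from a level of only 0.318 CPM in Bon. In the same comparison 3 glial markers rose and 1 fell. In Bon against mCherry 2 hemocyte and 3 glial markers fell and none rose. Fat body markers summed to no more than 14.7 CPM and tracheal markers to no more than 44.8 CPM in any library. The part of these cells in the values of the 37 genes was not tested.

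In the authors' deposited table for Bon against mCherry, 9 of the 37 genes were higher and 13 lower at an adjusted p of 0.05. In the authors' deposited table for Bon+yki-RNAi against Bon, 1 was higher and 15 lower. All 22 and 16 of these also passed here with the same sign, and the log2 fold changes in the authors' deposited tables differed from those given here by at most 0.00415 and 0.0129.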

How the data were processed

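Poly(A) RNA libraries from 9 samples, 3 for each of 3 groups, were sequenced as pairs of 150 nt from 100 ng of total RNA, per the labels' protocols. The authors deposited 1 table per library of estimated counts per gene that need not be whole, and how the decimals arose is not given in the sources used here. The submitters' processing notes name the build BDGP6 and, with no stated role or order, STAR 2.7.0e, Bowtie2 2.3.5.1, Subread 1.6.2 with featureCounts, cutadapt 2.9 and DESeq2 1.30.1. Whether strand was used, and how multi-gene reads were divided, is likewise not given. The authors' deposited comparison tables hold, per the file headers, log2 fold changes and p-values, quoted only where named. Their 12 columns of per-sample values were not used.

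Counts were rounded to whole numbers, filtered with filterByExpr (minimum count 10) and scaled with TMM in edgeR 4.0.16 under R 4.3.3. One quasi-likelihood fit (robust, group as the only term) over all 9 libraries gave log2 fold changes with standard errors and 95% intervals. Two-sided p-values were adjusted by the Benjamini-Hochberg method across every gene tested, with a threshold of 0.05. The pipeline was first tested on simulated data in which few genes changed, a setting that does not test the choice of scaling. CPM used library sizes multiplied by the TMM factors. CPM per kb divided these values by the exon length in the deposited tables.

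The values of 2 of the 37 members are not reported here, though every count of members includes them. Values in every library are given for the actins, for zip and sqh, and for members past the threshold with a log2 fold change of 0.3 or more in size in either design comparison. Other listed actin and myosin genes are named past 1 on that scale, at 1 CPM or more. The members and lists were chosen with earlier results of these data known. Alternatives were upper-quartile scaling, no filter, DESeq2 1.42.0, a replicate block, a fit of only the groups compared, and leaving out each library. Fits that leave a library out keep at least 2 per group. Libraries of a group differed by more than counting error, with a chi-square per gene of 2.64 to 11.3 between pairs.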

Additional observations from a re-analysis of the deposited data

How the results depend on the processing

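Over all alternatives, 1038 results of single genes kept their direction and side of the threshold, 58 lost a call and 13 gained one. In 5 more the sign changed with a call on at least one side, and in 41 it changed with no call on either, at log2 fold changes of up to 0.0583 in size. The changes of zip, chic, capt, dia, tmod and cher with Bon, and of jar and cher with yki knockdown, passed under all 11 alternatives. Upper-quartile scaling moved the most: in Bon+yki-RNAi against mCherry the rising members numbered 11 instead of 4 and the falling ones 12 instead of 25, and 4252 instead of 2773 of all tested genes rose. In the same comparison, among genes with a call under either scaling, it turned the sign of sqh (0.0161), Arpc1 (0.0891), Actn (0.0796), alpha-Spec (0.0733) and Cdc42 (0.0738). It shifted the median of all tested genes by 0.07, 0.02 and 0.09 on the log2 scale in Bon against mCherry, Bon+yki-RNAi against Bon and Bon+yki-RNAi against mCherry. The cause was not tested.

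Leaving out 1 library left 0 to 1 members rising in Bon+yki-RNAi against Bon. In Bon+yki-RNAi against mCherry, sqh lost its call without mCherry replicate 1 or 2 or Bon+yki-RNAi replicate 1 or 3 (adjusted p between 0.0622 and 0.11), and jar, SCAR and Arp2 did so without mCherry replicate 1 (-0.07 each, adjusted p = 0.0581, 0.0789 and 0.0774). With the replicate number as a block, 27, 19 and 30 members passed, against 26, 18 and 29 without it. Same-numbered libraries did not deviate together in all pairs (correlations of 0.0779 to 0.183 in Bon against mCherry and -0.0149 to 0.107 in Bon+yki-RNAi against Bon), so the numbers were not taken as pairing. In Bon against mCherry every library correlated best with its own number, a hint from the data only. Among the calls it added was Moe in Bon+yki-RNAi against mCherry (0.07, adjusted p = 0.0239).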
